A study of Caenorhabditis elegans with 8 samples.

Results

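Basic helix-loop-helix (bHLH) and basic leucine zipper (bZIP) genes of Caenorhabditis elegans were examined as possible binding sites of the FOXO transcription factor DAF-16. The genes taken were those whose symbol starts with hlh- or zip- in the peak list of either strain, with every peak assigned to them. They numbered 12 of the 6389 genes with a peak. Of these, 11 had 18 of the 5396 peaks in wild type (WT), and all 12 had 21 of the 6859 peaks in daf-2(-).

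Endogenous DAF-16 was mapped by chromatin immunoprecipitation and sequencing (ChIP-seq) in mixed-stage worms grown at 20 °C. The 4 strains were WT (N2), daf-2(-) (e1370, a mutation in the receptor for insulin-like signals), daf-16(-) (mgDf50) and daf-16(-);daf-2(-) (mgDf50 and e1370), each with 1 ChIP and 1 input library from pooled chromatin. The polyclonal antibody recognises all DAF-16 isoforms, and whole worms of all stages were used, so a peak cannot be placed in a tissue or a stage. The DAF-16-null strains served the authors to leave out peaks that occur without DAF-16, and they have no peak list of their own here. With 1 library per strain no difference has a replicate check. Intervals of read counts (tags) and of ratios cover counting error only. Those of shares and medians treat genes or peaks as independent draws, although some genes have several peaks. No interval includes variation between biological replicates.

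bHLH and bZIP proteins bind DNA as dimers, the former through a basic region next to a helix-loop-helix and the latter through a basic region continued by a leucine zipper. In worms bHLH proteins are best known as regulators of muscle, neuronal and other cell fates, with a smaller set that acts in lysosomal and lipid metabolism. Many bZIP proteins act in stress and pathogen responses. DAF-16 is held in the cytoplasm by insulin signalling through DAF-2 and enters the nucleus when that signalling is low. A peak at one of these genes therefore places DAF-16 beside a gene that itself encodes a DNA-binding regulator.

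DAF-16 peaks were found at most zip- genes and at few hlh- genes. Of the 12 zip- genes in the gene table used, 8 had a peak (66.7%, 95% Wilson interval 39.1 to 86.2), and the same 8 genes had one in both lists. Of the 25 hlh- genes, 3 had a WT peak (12%, interval 4.17 to 29.96) and 4 had a daf-2(-) peak (16%, 6.40 to 34.7). Among all 19983 protein-coding genes, 15.0% had a peak in the WT list, 18.0% in the daf-2(-) list and 20.0% in either. The interval of the zip- genes lay above these shares, and that of the hlh- genes included them. Together, 11 of the 37 hlh- and zip- genes (29.7%) had a WT peak and 12 (32.4%) had a daf-2(-) peak. Counting only peaks with a fold enrichment over local background of 10 or more, 9 of the 37 genes (24.3%, 13.4 to 40.1) had one in WT, against 9.15% of protein-coding genes, and 7 (18.9%, 9.48 to 34.2) in daf-2(-), against 6.42%. From 2.5 kb upstream to 300 bp downstream of a start site, 8 of the 37 genes (21.6%, 11.4 to 37.2) had a WT peak of any strength. In daf-2(-) 9 did (24.3%, 13.4 to 40.1). No share of all protein-coding genes is given for that window. By peak centre, zip-3 and zip-7 had no peak in it in either list, zip-4 none in WT and zip-10 none in daf-2(-). The WT peak of zip-4 was wide and centred 336 bp downstream, but its summit lay 28 bp upstream of the outer start.

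The bound zip- genes were zip-1, zip-3, zip-4, zip-5, zip-7, zip-10, zip-11 and zip-12. No peak was assigned to zip-2, zip-6, zip-8 or zip-9, of which zip-2 is a regulator of pathogen responses. The bound hlh- genes were hlh-1, the MyoD orthologue of body-wall muscle, hlh-11, an AP-4 homologue, and hlh-30, the TFEB orthologue that drives autophagy and lysosomal genes. hlh-13, the PTF1A orthologue, was assigned a peak in daf-2(-) only. No peak was assigned in either list to the 5 Achaete-Scute type genes (hlh-3, hlh-4, hlh-6, hlh-14 and hlh-19). The 5 REF-1 type genes (hlh-25 to hlh-29) and the 4 Olig type genes (hlh-16, hlh-17, hlh-31 and hlh-32) also had none. The same was true of hlh-2, the E protein partner of many bHLH proteins, hlh-8, the Twist orthologue of the mesoderm, the bHLH-PAS gene hlh-34, and the remaining 4 (hlh-10, hlh-12, hlh-15 and hlh-33). Some genes of the REF-1 and Olig types are near copies of each other, and only uniquely aligned reads were kept by the authors, so their lack of peaks is uncertain.

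**Figure D1:**
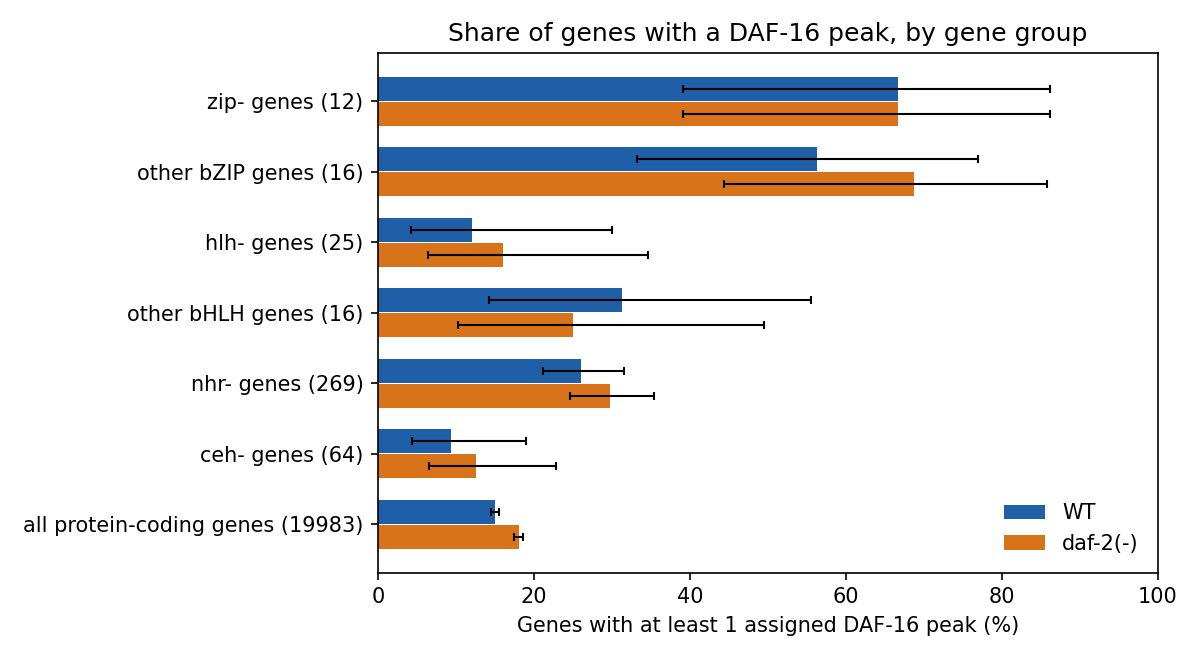
Share of genes with at least 1 assigned DAF-16 peak (%, horizontal axis) for 6 gene groups and for all protein-coding genes, with the number of genes in brackets, WT in blue and daf-2(-) in orange, and 95% Wilson intervals as lines. The zip- genes stood at 66.7% in both lists, and the hlh- genes at 12% and 16%, against 15.0% and 18.0% of all protein-coding genes.

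Gene length moved with these counts. Bound members had a median length of 4175 bp (684 to 19990 bp, n = 12) in the gene table, and the 25 members without a peak had a median of 1504 bp (425 to 4698 bp). Over all protein-coding genes, the share with a peak in either list was 12.6% for genes up to 1000 bp, 13.96% from there to 2000 bp, 22.8% to 5000 bp and 34.7% above. Of the 19 hlh- genes of 2000 bp or less, 1 had a peak, and of the 3 zip- genes of that length 2 did. Over 2000 bp, 3 of 6 hlh- genes and 6 of 9 zip- genes had a peak, so the shares of both were closer there. The part of gene length in the difference between hlh- and zip- genes was not tested.

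Genes of both families that carry other names were counted from a list of 32. A peak was present at 9 of 16 other bZIP genes in WT (56.2%, interval 33.2 to 76.9) and at 11 in daf-2(-) (68.8%, 44.4 to 85.8). It was present at 5 of 16 other bHLH genes in WT (31.2%, 14.2 to 55.6) and 4 in daf-2(-) (25%, 10.2 to 49.5). Over the whole families, 19 of 28 bZIP genes (67.9%, 49.3 to 82.1) and 9 of 41 bHLH genes (22.0%, 12 to 36.7) had a peak in either list. The intervals of both families did not overlap. As other transcription factor groups, 26.02% of 269 nuclear hormone receptor (nhr-) genes and 9.38% of 64 homeobox (ceh-) genes had a WT peak, so zip- genes exceeded both.

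The peaks of the 12 genes differed widely in strength. Strength is given as fold enrichment, which MACS calculates as the tags at the summit over the local background, and as the height of the summit. Member peaks in WT ran from 5.91 to 42.71 with a median of 11.6 (9.72 to 15.6), against 10.5 over the WT list. In daf-2(-) the median was 7.58 (7.00 to 11.2), against 7.24 over that list. A fold enrichment of 10 or more was reached by 12 of 18 WT peaks (66.7%), against 54.6% of the list, and by 8 of 21 daf-2(-) peaks (38.1%), against 30.1%. The intervals of the member medians included the list medians, and those of the member shares (43.7 to 83.7 in WT) included the list shares.

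**Figure D2:**
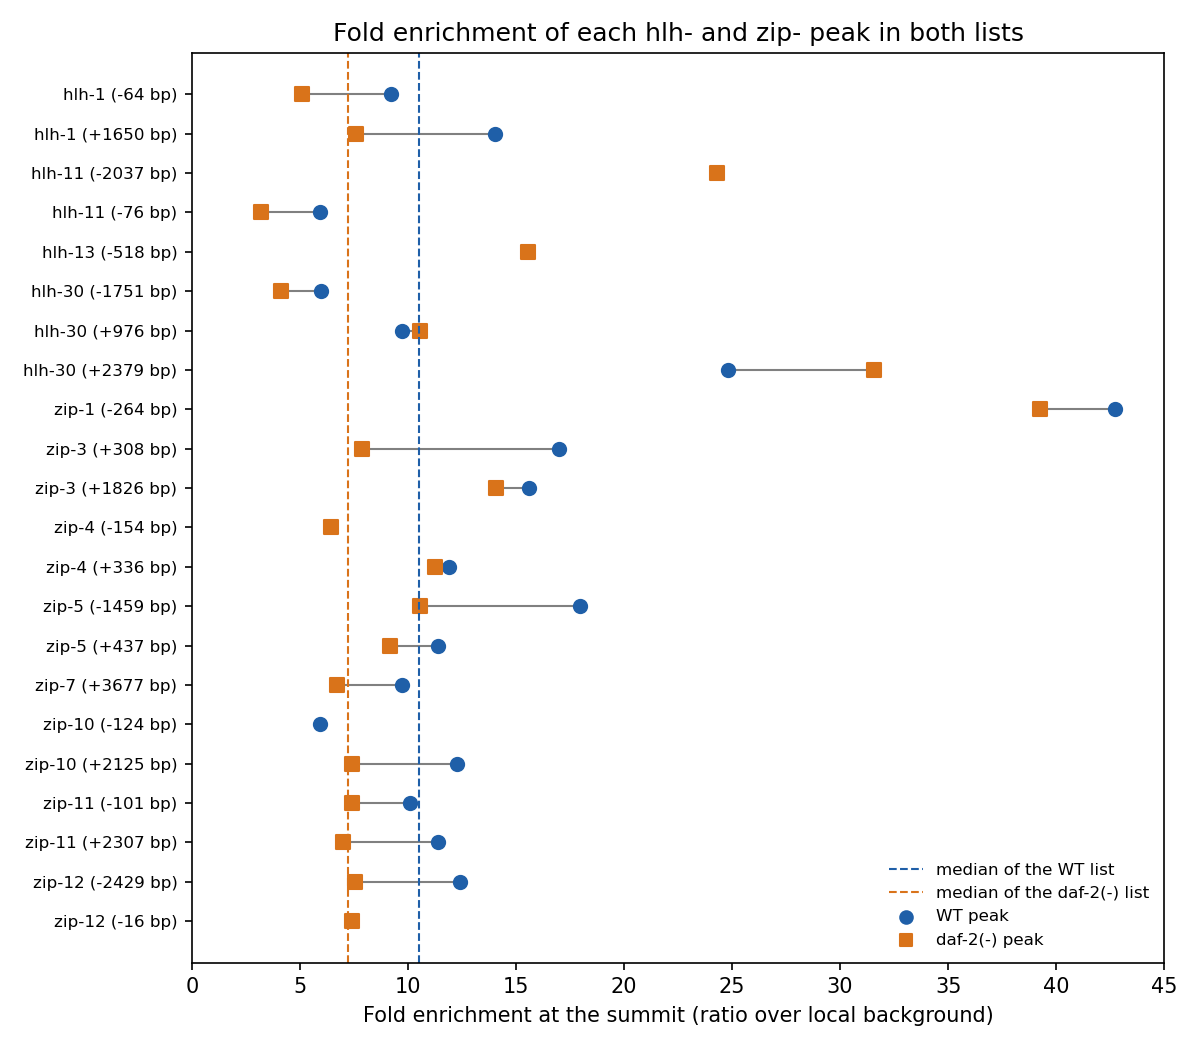
Fold enrichment at the summit (ratio over local background, horizontal axis) of each hlh- and zip- peak, named by gene and distance to the transcription start site, in WT (blue circles) and daf-2(-) (orange squares), with a line joining a shared pair and dashed lines at the medians of the whole lists. The zip-1 peak stood highest in both lists, at 42.71 and 39.23, and the +2379 bp peak of hlh-30 had the highest ratio of daf-2(-) over WT among members.

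The strongest recruitment was at zip-1 (WBGene00006986), a bZIP gene of the response to intracellular pathogens. Its WT peak lay on chromosome III from 12334980 to 12336001 (WS230, as are all coordinates here), 264 bp upstream of the transcription start site (TSS). It held 482 tags (interval 440 to 527), with a summit height of 334 and a fold enrichment of 42.71, and ranked 2 of 5396. The daf-2(-) peak, at 12335106 to 12336097 and 153 bp upstream, held 416 tags (377 to 458), with a height of 296 and a fold enrichment of 39.23, and ranked 13 of 6859. Thus a promoter-proximal site of this gene was near the top of both lists, and the summits lay 99 bp apart.

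zip-12 (WBGene00013560) lies upstream of zip-1 on the same chromosome, with 1 peak in WT and 2 in daf-2(-). A distal peak was present in both, at 12324923 to 12325831 in WT (2429 bp upstream, 180 tags, height 97, fold enrichment 12.4) and at 12325051 to 12325909 in daf-2(-) (2326 bp upstream, 92 tags, height 55, fold enrichment 7.54). The daf-2(-) list added a peak at the TSS itself, 12327333 to 12328247, centred 16 bp upstream, with 123 tags (102 to 147), a height of 54 and a fold enrichment of 7.41. No peak of the WT list overlapped it, but WT peaks coinciding with daf-16(-) peaks had been left out of that list. The TSS peak ranked 407 of the 2015 peaks found in daf-2(-) only.

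hlh-30 (WBGene00020930, chromosome IV, minus strand) had 3 peaks in each list, the most of any member. The strongest lay inside the gene, 2379 bp downstream of a TSS, at 4024035 to 4025333 in WT, with 554 tags (509 to 602), a height of 259 and a fold enrichment of 24.83. In daf-2(-) it lay at 4023995 to 4025329, with 600 tags (553 to 650), a height of 230 and a fold enrichment of 31.55. The summits were 3 bp apart. The rank of this peak went from 346 of 5396 in WT to 95 of 6859 in daf-2(-). Another peak inside the gene, at 4025658 to 4026515 in WT (+976 bp) and 4025622 to 4026507 in daf-2(-), had 143 and 135 tags, heights of 76 and 77 and fold enrichments of 9.72 and 10.56. The third lay upstream of the hlh-30 starts in the lists and was weak. In WT it had 225 tags, a height of 51 and a fold enrichment of 5.96 (4029045 to 4030715, 1751 bp upstream). Its daf-2(-) counterpart had 80 tags, a height of 32 and a fold enrichment of 4.1 (4029172 to 4029961, 1437 bp upstream), and the summits were 891 bp apart.

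Further peaks over hlh-30 were assigned to other genes. The promoter region, with the starts of the hlh-30 models at 4027063 and 4028129, was spanned by a WT peak at 4026823 to 4028936 with 636 tags, a height of 194 and a fold enrichment of 24.81, which the list gives to the noncoding gene F35F11.4. The daf-2(-) peak at 4026797 to 4028931 had 425 tags, a height of 126 and a fold enrichment of 17.28. Their summits lay 227 and 226 bp upstream of the outermost hlh-30 start in the lists. The widest hlh-30 model of the lists spans 12515 bp, and the gene table gives a length of 19990 bp. Whether the gene extends further upstream was not checked. Deeper in the gene, peaks given to the noncoding gene W02C12.4 had fold enrichments of 22.67 and 10.55 in WT and 20.55 and 10.45 in daf-2(-). At this locus the counts by assigned gene therefore left out the peak nearest to the outermost hlh-30 start of the lists.

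**Figure D3:**
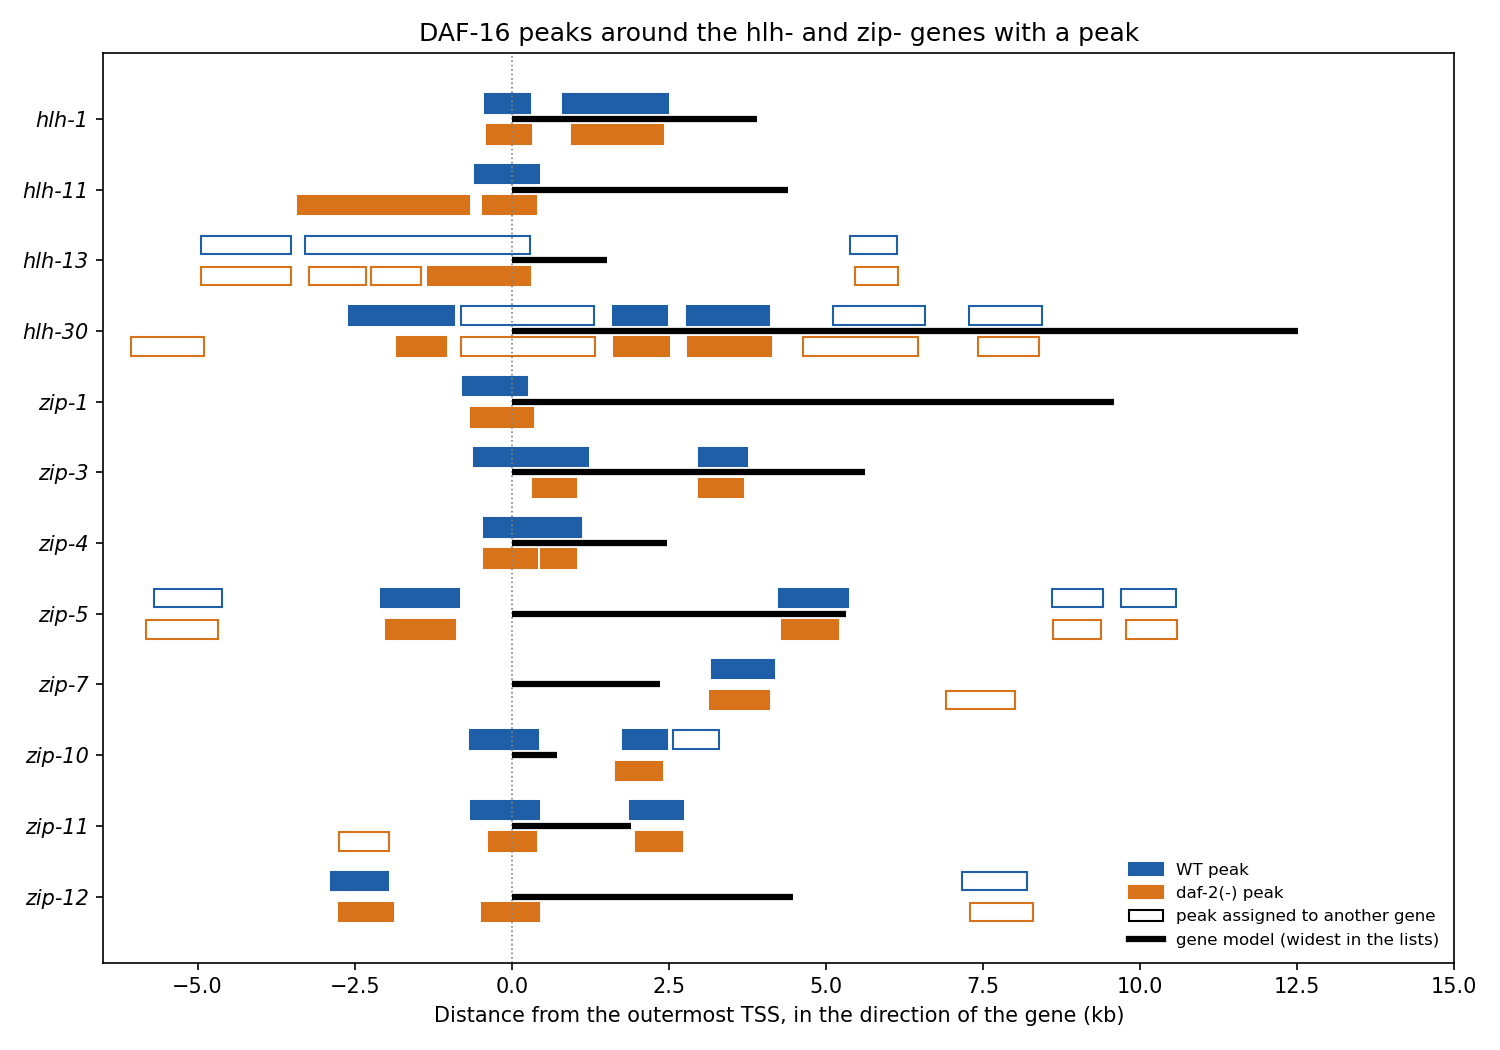
DAF-16 peaks around the 12 hlh- and zip- genes with a peak, by distance in kb from the outermost TSS in the direction of the gene, with WT peaks above and daf-2(-) peaks below the widest gene model of the lists (black line). Filled bars are peaks assigned to the gene and open bars are peaks assigned to another gene. At hlh-11 the wide upstream peak is present in daf-2(-) alone, and at hlh-30 open bars lie over the start of the gene.

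At hlh-11 (WBGene00001955, chromosome III) the main peak was found in daf-2(-) only. It spanned 2728 bp, from 9618743 to 9621470, centred 2037 bp upstream of the TSS, and held 878 tags (821 to 938), with a height of 177 and a fold enrichment of 24.28. It ranked 274 of 6859 in its list and 24 of the 2015 peaks found in daf-2(-) only. A weak peak at the TSS was shared, at 9621558 to 9622577 in WT (143 tags, height 54, fold enrichment 5.91) and at 9621685 to 9622536 in daf-2(-) (77 tags, height 27, fold enrichment 3.2). The latter was near the bottom of its list, with 0.714% of its peaks below it. Because WT peaks coinciding with daf-16(-) peaks were left out of the WT list, an unlisted WT peak at the upstream site cannot be told apart from a site without enrichment.

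hlh-13 (WBGene00001957, chromosome X) entered through a daf-2(-) peak at 4247916 to 4249545, 518 bp upstream, with 414 tags (375 to 456), a height of 128 and a fold enrichment of 15.54. In WT this stretch was not without a peak. A WT peak of 757 tags, height 117 and fold enrichment 14.56, at 4245961 to 4249537, covered the same stretch and was given to the neighbouring gene F48D6.4. The daf-2(-) list split that stretch into 3 peaks, 2 of them at F48D6.4 with fold enrichments of 10.88 and 5.35. The summit of the wide WT peak lay 2276 bp from the hlh-13 summit.

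hlh-1 (WBGene00001948, chromosome II) had a peak at its TSS and a larger one inside the gene in both lists. The TSS peak lay at 4518137 to 4518855 in WT (64 bp upstream, 123 tags, height 74, fold enrichment 9.21) and at 4518166 to 4518874 in daf-2(-) (40 bp upstream, 86 tags, height 37, fold enrichment 5.08). The internal peak lay at 4519371 to 4521050 in WT, with 336 tags (301 to 374), a height of 115 and a fold enrichment of 14.01. In daf-2(-) it lay at 4519523 to 4520973, with 191 tags (165 to 220), a height of 56 and a fold enrichment of 7.58. Both sites were thus lower in daf-2(-), while the summits stayed within 22 and 14 bp. Fold enrichment was also lower in daf-2(-) at 84.8% of all shared pairs, and the lists were scaled separately.

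zip-3 (WBGene00012330, chromosome II, minus strand) encodes a bZIP protein that represses the mitochondrial unfolded protein response driven by ATFS-1. It had 2 peaks in each list, all centred inside its models, and the WT peak near the outer TSS extended upstream of it. The peak near the outer TSS had 369 tags, a height of 133 and a fold enrichment of 17.01 in WT (13956304 to 13958126), against 87 tags, a height of 61 and a fold enrichment of 7.86 in daf-2(-) (13956499 to 13957187). The peak further in, at 13953782 to 13954550 in WT, had 209 tags, a height of 122 and a fold enrichment of 15.6. Its daf-2(-) counterpart at 13953848 to 13954548 had 166 tags, a height of 109 and a fold enrichment of 14.05. The sites of this gene therefore differed from each other in how much lower they were in daf-2(-).

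zip-5 (WBGene00007932, chromosome V) also had 2 peaks in each list. The upstream peak, at 13262463 to 13263711 in WT (1459 bp upstream), had 374 tags, a height of 166 and a fold enrichment of 17.98. In daf-2(-), at 13262543 to 13263637, it had 196 tags, a height of 91 and a fold enrichment of 10.57. The peak at the inner TSS, 13268797 to 13269897 in WT, had 222 tags, a height of 89 and a fold enrichment of 11.38, against 141 tags, a height of 80 and a fold enrichment of 9.18 in daf-2(-) (13268847 to 13269733).

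zip-4 (WBGene00021552, chromosome I, minus strand), a gene of the C/EBP type, had 1 wide WT peak of 1544 bp (3265654 to 3267197, 201 tags, height 93, fold enrichment 11.89). In daf-2(-) the same stretch held 2 peaks. The stronger had 108 tags, a height of 82 and a fold enrichment of 11.25 (3266366 to 3267198), and its summit lay 2 bp from that of WT. The weaker had 57 tags, a height of 47 and a fold enrichment of 6.45 (3265734 to 3266288). The deposited distance, measured from the peak centre, went from +336 to -20 bp although the summit did not move.

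zip-10 (WBGene00012101, chromosome V, minus strand), which promotes death of worms after cold shock, had a promoter peak in the WT list only. That peak, at 11650386 to 11651459 and 124 bp upstream, had 176 tags (151 to 204), a height of 65 and a fold enrichment of 5.94. It was in the weaker part of the 679 peaks found in WT only, at rank 513, and their median was 7.16. The other peak lay 1405 bp beyond the end of the gene, with 146 tags, a height of 96 and a fold enrichment of 12.28 in WT (11648327 to 11649019) and 83 tags, a height of 54 and a fold enrichment of 7.41 in daf-2(-) (11648399 to 11649132).

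At the remaining members every peak was shared. zip-11 (WBGene00021082, chromosome IV) had a peak at its TSS with fold enrichments of 10.1 in WT (190 tags) and 7.41 in daf-2(-) (93 tags). A further zip-11 peak, 403 bp beyond the gene end in WT, had fold enrichments of 11.38 (124 tags) and 7.00 (71 tags). zip-7 (WBGene00013100, chromosome IV) had only a peak beyond its end, by 1318.5 bp in WT, with fold enrichments of 9.72 (183 tags) and 6.72 (108 tags). It had no peak centred upstream of or inside its gene models in either list.

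Several of these genes carried more than 1 peak. Members had 1.64 peaks per gene in WT and 1.75 in daf-2(-), against 1.16 and 1.22 over the lists. At least 2 peaks were present at 6 of the 11 bound genes in WT (54.5%), against 12.4% of all genes with a peak, and at 8 of 12 in daf-2(-) (66.7%), against 16%. These were hlh-1, hlh-30, zip-3, zip-5 and zip-11 in both lists, zip-10 in WT, and hlh-11, zip-4 and zip-12 in daf-2(-). Both peaks of zip-4 in daf-2(-) overlapped the same WT peak. The genes of the lists include noncoding ones, and no such share is given for protein-coding genes or for genes of like length.

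By position, the share of member peaks just upstream of the TSS was below that of the lists, with intervals that included the list shares. Within 0.5 kb upstream lay 5 of 18 WT peaks (27.8%, 12.5 to 50.9), against 36.5% of the list, and 6 of 21 daf-2(-) peaks (28.6%, 13.8 to 49.96), against 37.0%. In the window of 2.5 kb upstream to 300 bp downstream lay 8 WT peaks (44.4%, 24.6 to 66.3), against 74.8% of the list, and 12 daf-2(-) peaks (57.1%, 36.5 to 75.5), also against 74.8%. The WT interval lay below the share of the list and that of daf-2(-) included it. Within the gene models lay 7 WT peaks (38.9%), against 22.6% of the list, at hlh-1, hlh-30, zip-3, zip-4 and zip-5, and 7 daf-2(-) peaks (33.3%), against 20.4%. Both intervals (20.3 to 61.4 and 17.2 to 54.6) included the list shares. Positions are those of peak centres, and the WT peak of zip-4 counted here had its summit upstream of the outer start. Beyond the gene end lay 3 peaks in each list, at zip-7, zip-10 and zip-11 (16.7% and 14.3%), near the 12.1% and 12.3% of the lists.

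Sharing between strains was high. Of the WT member peaks 17 of 18 overlapped a daf-2(-) peak by at least 1 bp (94.4%, 74.2 to 99.0), against 87.4% of the list, the exception being the promoter peak of zip-10. Of the daf-2(-) member peaks 19 of 21 overlapped a WT peak (90.5%, 71.1 to 97.3), against 70.6%, the exceptions being hlh-11 upstream and zip-12 at the TSS. The interval for daf-2(-) lay only just above the share of its list under the 1 bp overlap (71.1 against 70.6). This rule counts hlh-13 as shared. It also counts both zip-4 peaks, which overlap the same WT peak and are not independent, so no excess over the list is read from it. With an overlap of 50% of the shorter peak the member share was the same. With the partner assigned to the same gene it was 85.7% (65.4 to 95.02), and with summits within 100 bp it was 66.7% (45.4 to 82.8). The list share of 70.6% holds for the 1 bp overlap and is not given for the other rules. Members therefore cannot be set against the list there. Summits of the 17 pairs were a median of 71 bp apart (22 to 98), against 37 bp over all 4717 pairs, and 14 lay within 100 bp (82.4%), near the 86.7% of all pairs.

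At shared peaks, fold enrichment was mostly lower in daf-2(-), as in the lists as a whole. The paper reports the other direction at coding genes bound in both strains, where average peak height rose in daf-2(-). Its read counts were input-subtracted and quantile normalised, unlike the fold enrichments here. A lower value here is therefore not read as less DAF-16 in daf-2(-). Fold enrichment was lower at 15 of 17 member pairs, against 84.8% of all pairs. The median log2 ratio of daf-2(-) over WT was -0.54 (-0.77 to -0.15) for members and -0.39 for all pairs, and the lists were scaled separately, so members are read against the latter. All 11 zip- pairs were lower, with a median of -0.53, and 4 of the 6 hlh- pairs were, with a median of -0.70. Both exceptions were peaks inside hlh-30.

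The interval of the ratio from the counts at both summits lay above the median of all pairs (-0.39, interval -0.40 to -0.37) and its interval at 3 member pairs, below them at 2, and reached into them at 12. Above were hlh-30 at +2379 bp (0.35, 0.08 to 0.61), hlh-30 at +976 bp (0.12, -0.36 to 0.60) and zip-1 (-0.12, -0.35 to 0.11). The ratio of the stronger hlh-30 peak exceeded those of 96.6% of all pairs. Its local background was 10.4 in WT and 7.29 in daf-2(-), and by summit height alone the log2 ratio was -0.17. Below the median were zip-3 at +308 bp (-1.11, -1.58 to -0.67) and hlh-1 at +1650 bp (-0.89, -1.37 to -0.41). At zip-5, -1459 bp, the upper bound fell on the median (-0.77, -1.15 to -0.39). The TSS peak of hlh-11 had a ratio of -0.89 (-1.61 to -0.19), and that of zip-4 was -0.08 (-0.53 to 0.36). Only 3.33% of all pairs had a lower ratio than the zip-3 peak.

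**Figure D4:**
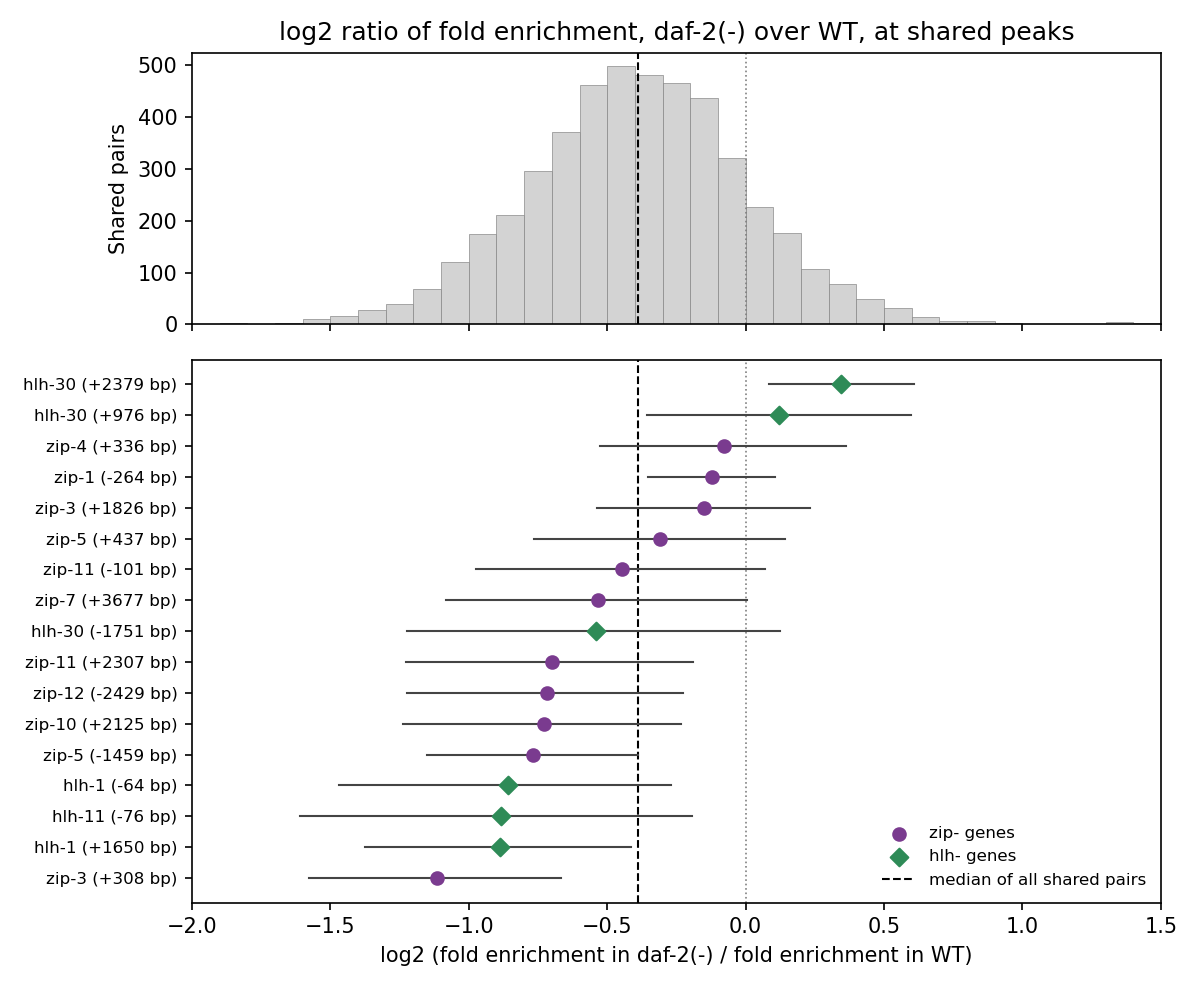
Log2 ratio of fold enrichment in daf-2(-) over WT (horizontal axis) for all 4717 shared pairs as a histogram (above, number of pairs) and for the 17 hlh- and zip- pairs (below, named by gene and WT distance to the TSS), with 95% intervals from the summit counts as lines. The dashed line is the median of all pairs (-0.39), and the dotted line marks equal values. The hlh-30 pairs at +2379 and +976 bp lie right of the dotted line, and the zip-3 pair at +308 bp is the lowest at -1.11.

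Among the family members with other names, the strongest WT peaks were at atfs-1 (fold enrichment 28.39), the bZIP regulator of the mitochondrial unfolded protein response, xbp-1 (28.18), its counterpart in the endoplasmic reticulum, and hif-1 (25.36), the bHLH-PAS factor of the hypoxia response. In daf-2(-) they were at xbp-1 (26.2), cebp-1 (25.38), a C/EBP gene, and hif-1 (20.58). atfs-1 had 18.79 in daf-2(-), with its peak centred 5721 bp downstream of the TSS. cebp-1 had no peak in the WT list, and its daf-2(-) peak lay 344 bp upstream. As at the upstream site of hlh-11, a WT peak left out of the list cannot be told apart from a site without enrichment. All of these fold enrichments were below those of zip-1 in both lists. The CREB gene crh-1 had 5 peaks in WT and 7 in daf-2(-), and jun-1 had 6 in each, more than any hlh- or zip- gene. ref-1 had a peak in WT only (6.91), and crh-2 in daf-2(-) only (5.25).

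Of the 25 members without a peak, 9 (36%) were next to a gene with an assigned peak, near the 28.9% of all protein-coding genes without a peak. They were hlh-4 beside dao-6, hlh-8 beside K07E3.1, hlh-10 beside ZK682.9, hlh-12 beside spp-10, hlh-15 beside trpp-12, hlh-16 beside lmn-1, hlh-29 beside F31A3.7, zip-2 beside K02F3.15 and zip-6 beside R07H5.14. As hlh-13 and hlh-30 show, assignment to the nearest TSS can place a peak with the neighbour.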

How the data were processed

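Single-end ChIP-seq reads of 8 libraries were processed by the authors with CASAVA 1.8.2, Cutadapt, Bowtie 0.12.7 (WS230, unique alignments) and MACS 1.4.2, each ChIP against its input, and peaks were assigned to the nearest TSS. Peaks also found in the matching strain without DAF-16 had been removed, per the study's list of its datasets. The authors deposited, for each peak, the count of tags, the summit height (a pileup signal), the fold enrichment (ratio of summit over local background) and the FDR in percent. In the files analysed, depth was given as tags per peak, 123 to 554 at member peaks in WT. The strain of each list comes from its deposited name. The 2 lists were scaled separately. The column of tag density (1 column) matched no sample and was not used.

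Peaks overlapping by at least 1 bp were called shared, and the overlapping daf-2(-) peak whose summit lay closest was taken as the partner of a WT peak. Shares have Wilson and medians exact order-statistic 95% intervals, tags exact Poisson ones, and log2 ratios exact binomial ones from summit heights with the background taken as fixed. Those of tags and log2 ratios cover counting error only. Those of shares and medians treat genes or peaks as independent draws. No p-value was computed. Overlap and pairing were tested on simulated data. Gene names, types, lengths and neighbours came from a RefSeq table (WBcel235, its gene starts used only to order neighbours), in which genes for 98.8% (WT) and 98.7% (daf-2(-)) of peaks were found. jun-1 was listed under date-like symbols and found by sequence name, and atf-4 was listed as atf-5.

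Every bound member was named. Full values were given for the 5 members highest by fold enrichment per list, those in 1 list only, the 3 with most peaks and the 3 highest and 3 lowest pair ratios, and the 3 strongest of the other family genes per list were named. Further genes were named after their values were seen. The members and lists were chosen with earlier results of these data known. Alternatives were other thresholds, windows, overlaps and strength measures. A planned motif search was not run, since no promoter sequence was used here. Software was Python 3.11.15 with scipy 1.17.1, pandas 2.3.3, numpy 2.4.6 and matplotlib 3.10.9.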

Additional observations from a re-analysis of the deposited data

How the results depend on the processing

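Of 35 values under alternatives, 28 kept their direction and lay within the interval of the main value. Some of these were still far from the main value. WT sharing went from 94.4% to 77.8% with summits within 100 bp. The share of WT member peaks within 0.5 kb upstream went from 27.8% to 16.7% at a fold enrichment of 10 or more. The daf-2(-) median fold enrichment went from 7.58 to 10.91 with the strongest peak of each gene. Values outside the interval of the main value follow. With a fold enrichment of 10 or more, 100% of WT member peaks were shared (12 of 12), and 18.9% of the 37 genes had a daf-2(-) peak. For sharing, the limit applied to the WT peak alone. Some daf-2(-) partners fell below it, as at zip-12 (12.4 in WT, 7.54 in daf-2(-)). No share of the whole list is given under this limit. Requiring summits within 100 bp left 66.7% of daf-2(-) member peaks shared. In the window of 2.5 kb upstream to 300 bp downstream, the median fold enrichment in WT was 9.655 over 8 peaks, and the share of daf-2(-) peaks in that window was 57.1%, the wider window itself holding more peaks. By tags, the median log2 ratio was -0.81, against -0.56 for all pairs. The log2 ratio of hlh-30 at +2379 bp reversed to -0.17 by summit height, where the local background, 10.4 in WT and 7.29 in daf-2(-), no longer enters. No paired analysis was possible because no strain had more than 1 ChIP library, so leaving out a replicate was not possible either. Alternatives on the FOXO motif were not run. The alternatives that required a partner assigned to the same gene, or took any peak over the gene models, were chosen after seeing the data. The fewest tags in a member peak were 57 (43.2 to 73.9), in daf-2(-).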
